A study of Mus musculus with 6 samples.

Results

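The 34 genes described here are transcripts that mouse astrocytes raise when they become reactive, together with Stat3 and Socs3 of the signalling route that drives many of them. They were chosen as a published reactive-astrocyte panel: 11 pan-reactive, 9 A1-type and 12 A2-type genes, with Stat3 and Socs3 beside them. All 34 were found by symbol among the 36210 gene rows of the deposited table. The series set 3 libraries from APP/PS1 mice given AVE0991 against 3 libraries from APP/PS1 mice given vehicle. AVE0991, a non-peptide mimic of angiotensin-(1-7), was given by intraperitoneal injection at 10 mg/kg once daily for 30 days, and vehicle mice had 0.9% sterile saline on the same schedule. Mice of both groups were 8 months old and carried the APP/PS1 transgenes, which cause amyloid plaques, and no mice without the transgenes enter the comparison. The labels call the RNA adult astrocyte RNA from brain. The sources used here do not give the isolation method, the APP/PS1 line or whether each library is a separate animal. The p-values therefore measure the spread between these libraries, which may be technical.

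Astrocytes respond to injury, infection and amyloid by changing their transcription, a state called reactive astrogliosis. Cytokines of the interleukin-6 family act on receptors that share the gp130 chain and activate the transcription factor STAT3, which is required for much of this response, and SOCS3 is the inhibitor that STAT3 induces to close the loop. In mice, the A1-type genes were defined by their rise after bacterial endotoxin and the A2-type genes by their rise after stroke, while pan-reactive genes rose in both. Several of these genes are also expressed by endothelial cells, fibroblasts, microglia or neurons, so in bulk RNA their level depends on the cells present as well as on the astrocyte state.

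Gene rows held 44583274 to 50066615 estimated counts per library. The reactive astrocyte genes together held 12559 to 13794 of these in AVE0991 libraries and 10190 to 13228 in vehicle libraries. Values below are CPM, counts scaled to library size, with TMM normalisation, unless FPKM, the deposited length-scaled value, is named. Markers of other brain cells were present in every library, and no listed marker that was found in the table had 0 counts in any library. AVE0991 replicates 2 and 3 stood apart from the other libraries. Their 12 cerebellar markers, such as Gabra6 and Cbln3 of granule cells, summed to 2510 and 2691 CPM, against 289 CPM in AVE0991 replicate 1 and 264 to 306 CPM in vehicle libraries. Markers of Bergmann glia, the cerebellar astrocytes, summed to 800, 1359 and 1740 CPM in AVE0991 replicates 1, 2 and 3 (7 of 8 found). In vehicle libraries they summed to 741 to 895 CPM. Gria1 made up much of these sums, with 467, 514 and 845 CPM in AVE0991 and 508, 407 and 363 CPM in vehicle libraries. On the log2 fold change 6 of the 7 lay above 0, and Fabp7 lay below (-0.79, SE 0.18). The 15 astrocyte markers summed to 7368, 9146 and 9248 CPM in the AVE0991 libraries and to 7749, 6422 and 7099 CPM in the vehicle libraries. Slc1a2, the glutamate transporter gene with 2637 to 3073 CPM in AVE0991 and 3019 to 4307 CPM in vehicle libraries, makes up much of that sum and was the 1 astrocyte marker below 0 on the log2 fold change. Neuron markers summed to 5371 to 5800 CPM in AVE0991 and 5591 to 6379 CPM in vehicle libraries, and oligodendrocyte markers to 5764 to 12172 CPM in AVE0991 and 3850 to 8307 CPM in vehicle libraries.

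No reactive astrocyte gene passed the test of AVE0991 against vehicle. Of the 32 genes with enough counts to be tested, 0 were called higher and 0 lower at an edgeR adjusted p under 0.05, where 0.0344% of all 20363 genes tested were called higher and 0.83% lower. At an unadjusted p under 0.05, 9 of the 32 were higher and 1 was lower, or 28.1% and 3.12%, where all genes tested gave 10.9% and 12.7%. All 3 AVE0991 libraries lay above all 3 vehicle libraries for 6 of the 32 (background 14.3%) and below them for 2 (background 16.3%). The median log2 fold change of AVE0991 over vehicle was 0.18 over the 32 genes and -0.01 over all genes tested, and 22 of the 32 lay above 0. Tgm1, which entered the test through its AVE0991 counts, is in each of these counts of higher genes. Timp1, which met the filter on low counts in every AVE0991 but not every vehicle library, is among the 22 above 0. Of the 15 astrocyte markers 14 lay above 0, with a median log2 fold change of 0.52; edgeR called 0 of them, 10 were higher at an unadjusted p under 0.05, and DESeq2 called 7 higher. The part of the astrocyte markers in the members' values was not tested. The class medians were 0.20 for 11 pan-reactive, 0.08 for 9 A1-type and 0.09 for 10 A2-type genes.

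DESeq2 on the same genes called 5 of the 32 higher and 1 lower, against 4.71% and 6.48% of all genes. These were Sphk1, Cd14, Fbln5, Serping1 and Cd44, and the lower Iigp1. With limma-voom and sample quality weights Sphk1 alone was called, where 6.36% of all genes were called in either direction. In the authors' deposited table, whose p-values also came from DESeq2, Sphk1, Cd14, Serping1 and Fbln5 had a q under 0.05 and were higher, and Iigp1 was lower. Gene rows of the authors' deposited table met that threshold in 1.78% of cases for higher and 2.93% for lower.

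**Figure D1:**
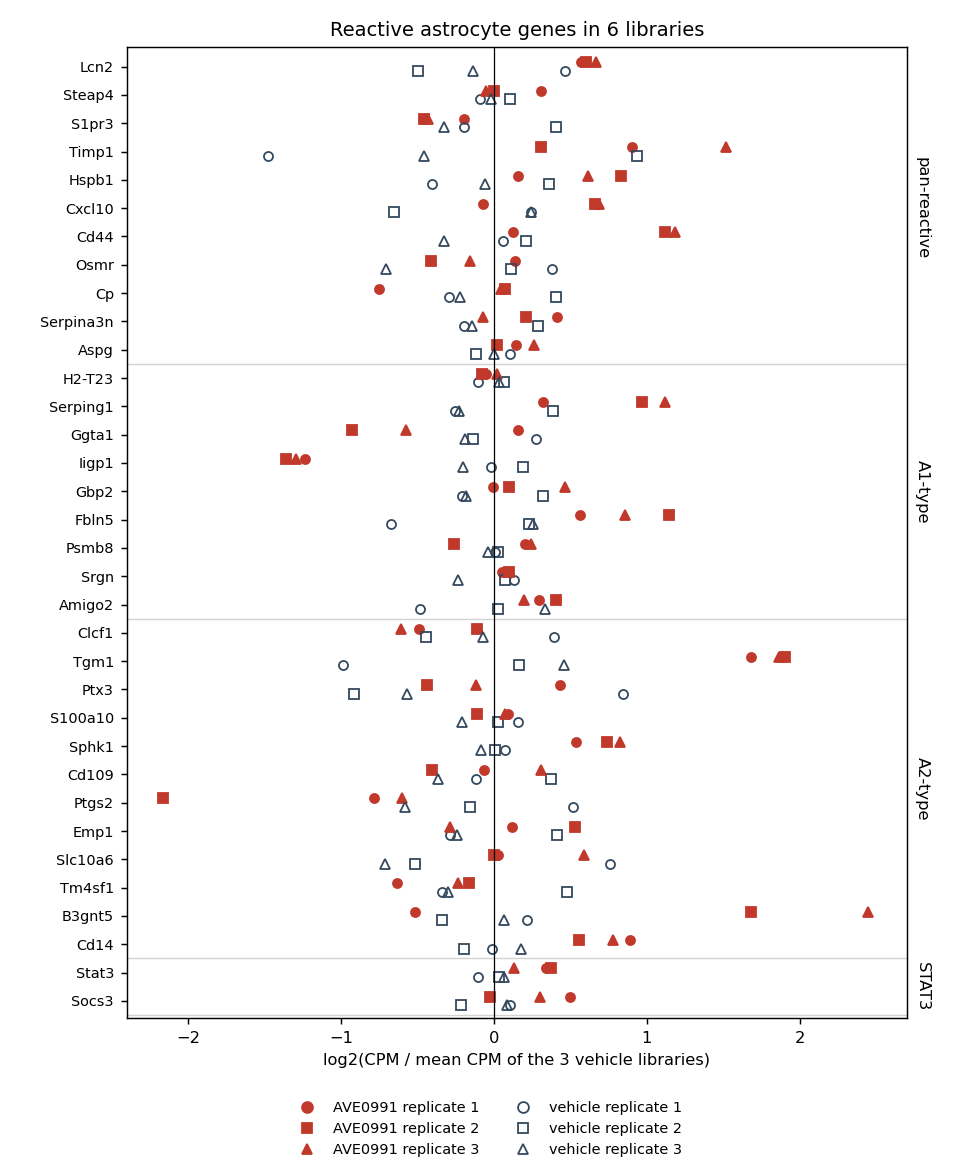
Each row is a reactive astrocyte gene, grouped by class, and each symbol is 1 library, filled for AVE0991 and open for vehicle, on a log2 scale of CPM relative to the mean of the 3 vehicle libraries. Most rows overlap, Sphk1, Cd14 and Tgm1 lie to the right and Iigp1 to the left in all 3 AVE0991 libraries, and AVE0991 replicates 2 and 3 part from replicate 1 for Cd44 and B3gnt5.

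Among the A2-type genes Sphk1 came closest to the threshold. Sphk1 encodes sphingosine kinase 1, which makes the signalling lipid sphingosine-1-phosphate. Sphk1 had 7.60, 8.75 and 9.28 CPM across AVE0991 replicates 1, 2 and 3 and 5.51, 5.26 and 4.96 CPM in vehicle replicates 1, 2 and 3. The groups did not overlap, and the 1.63-fold difference (log2 fold change 0.70, SE 0.14) had an adjusted p of 0.0708. Without the cerebellum-marked AVE0991 replicates 2 and 3, which leaves a lone AVE0991 library, the log2 fold change of Sphk1 was 0.54. Leaving out single libraries gave 0.64 to 0.78. Without AVE0991 replicate 1, which leaves only the cerebellum-marked AVE0991 libraries, the edgeR adjusted p of Sphk1 was 0.022. That fit called 6.63% of all genes higher and 4.76% lower. The receptor gene S1pr3, a pan-reactive member that responds to the same lipid, did not share this order: it had 6.28, 5.25 and 5.36 CPM in AVE0991 and 6.28, 9.57 and 5.76 CPM in vehicle libraries (log2 fold change -0.36, SE 0.22, adjusted p = 0.373).

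Cd14, the co-receptor that presents endotoxin to Toll-like receptor 4, showed the same separation. It was measured at 6.22, 4.94 and 5.76 CPM in AVE0991 libraries and at 3.33, 2.94 and 3.80 CPM in vehicle libraries. The lowest AVE0991 library stood above the highest vehicle library, and the 1.68-fold difference (log2 fold change 0.75, SE 0.18) had an adjusted p of 0.0955. Without AVE0991 replicates 2 and 3 it was 0.90. Cd14 is also a gene of microglia and macrophages. The 10 microglia and macrophage markers, all detected, summed to 488, 355 and 397 CPM in AVE0991 libraries and 439, 370 and 410 CPM in vehicle libraries, with 4 of 10 above 0 on the log2 fold change. By edgeR 0 of the 10 were called and 2 were lower at an unadjusted p under 0.05, against 12.7% of all genes tested. DESeq2 called 1, Gpr34, lower (log2 fold change -1.10, adjusted p = 0.0128), against 6.48% of all genes. Their part in the Cd14 result was not tested.

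Tgm1, a transglutaminase that cross-links proteins, had the largest log2 fold change of the tested members but few reads. It had 14, 15 and 14 counts in AVE0991 libraries, against 2, 5 and 6 counts in vehicle libraries, so it passed the filter on low counts through the AVE0991 group alone and had to differ. The log2 fold change was 1.77 (SE 0.44, 95% interval 0.72 to 2.83, adjusted p = 0.104). Timp1, an inhibitor of matrix metalloproteinases, was as sparse, with 23, 14 and 31 counts in AVE0991 and 4, 24 and 9 counts in vehicle libraries, and its groups overlapped (log2 fold change 0.97, SE 0.62). Timp1 too met the filter on low counts in every AVE0991 library but not in every vehicle library, which favoured its direction. Its log2 fold change was 0.61 without vehicle replicate 1, 0.62 without AVE0991 replicate 3 and 1.84 without vehicle replicate 2.

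Ptgs2 was the A2-type gene with the lowest ratio. It encodes cyclooxygenase-2, the inducible enzyme of prostaglandin synthesis, and neurons of the forebrain express it as well. Ptgs2 had 4.19, 1.61 and 4.77 CPM in AVE0991 libraries and 10.3, 6.48 and 4.82 CPM in vehicle libraries. The groups did not overlap, but AVE0991 replicate 3 and vehicle replicate 3 were next to each other, and the log2 fold change of -1.03 (SE 0.45) had an unadjusted p of 0.058. After a per-library correction for transcript GC content it was -0.58.

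In the A1-type class Iigp1 and Fbln5 separated the groups. Iigp1, an interferon-induced GTPase of immunity to intracellular parasites, had 0.379, 0.348 and 0.363 CPM in AVE0991 libraries and 0.882, 1.02 and 0.777 CPM in vehicle libraries. That was 19, 16 and 16 counts in AVE0991 and 40, 52 and 39 counts in vehicle libraries, a level 2.44-fold lower under AVE0991 (log2 fold change -1.29, SE 0.27, adjusted p = 0.0774). Without AVE0991 replicates 2 and 3 it was -1.22. The longest Iigp1 transcript had a GC content of 39.3%, and after the GC correction the log2 fold change was -0.80 (adjusted p = 0.261). Iigp1 belongs to a family of near-identical GTPase genes, so its counts are uncertain where reads match several.

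Fbln5, which encodes fibulin-5 of elastic fibres, was measured at 13.3, 19.9 and 16.3 CPM in AVE0991 libraries and at 5.67, 10.6 and 10.8 CPM in vehicle libraries. The AVE0991 libraries were all above the vehicle libraries (log2 fold change 0.87, SE 0.28, adjusted p = 0.139). Without AVE0991 replicates 2 and 3 the value was 0.57. Fibroblasts and vascular cells also make fibulin-5. The 10 meningeal fibroblast markers summed to 266, 321 and 316 CPM in AVE0991 libraries and 240, 293 and 233 CPM in vehicle libraries. Igf2 and Pdgfra made up much of these sums. On the log2 fold change 6 of the 10 lay above 0. By edgeR 0 were called, and 3 were higher and 1 lower at an unadjusted p under 0.05. All genes tested gave 10.9% and 12.7%. DESeq2 called 1, Ogn, lower (log2 fold change -1.43, adjusted p = 6.97e-05), against 6.48% of all genes. The part of these markers in the Fbln5 result was not tested.

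Lcn2 and Stat3 were the remaining members whose groups did not overlap. Lcn2, the iron-siderophore binding protein lipocalin-2 that astrocytes secrete on inflammation, had 7.06, 7.21 and 7.54 CPM in AVE0991 libraries and 6.57, 3.37 and 4.32 CPM in vehicle libraries. The AVE0991 values were close together and the vehicle values spread, with vehicle replicate 1 just below the lowest AVE0991 value (log2 fold change 0.61, SE 0.25, adjusted p = 0.202). Leaving out vehicle replicate 1 or another single library gave 0.42 to 0.94.

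Stat3 was the most abundant member in CPM. It stood at 79.8, 81.3 and 68.9 CPM in AVE0991 libraries and 58.5, 64.3 and 65.8 CPM in vehicle libraries. The 1.22-fold difference (log2 fold change 0.29, SE 0.10) had an unadjusted p of 0.0298 and an adjusted p of 0.172, and it was 0.14 after the GC correction. Socs3, its inhibitor and transcriptional target, overlapped between groups, with 5.72, 3.98 and 4.99 CPM in AVE0991 and 4.36, 3.48 and 4.30 CPM in vehicle libraries (log2 fold change 0.28, SE 0.20, 95% interval -0.19 to 0.74, adjusted p = 0.431).

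**Figure D2:**
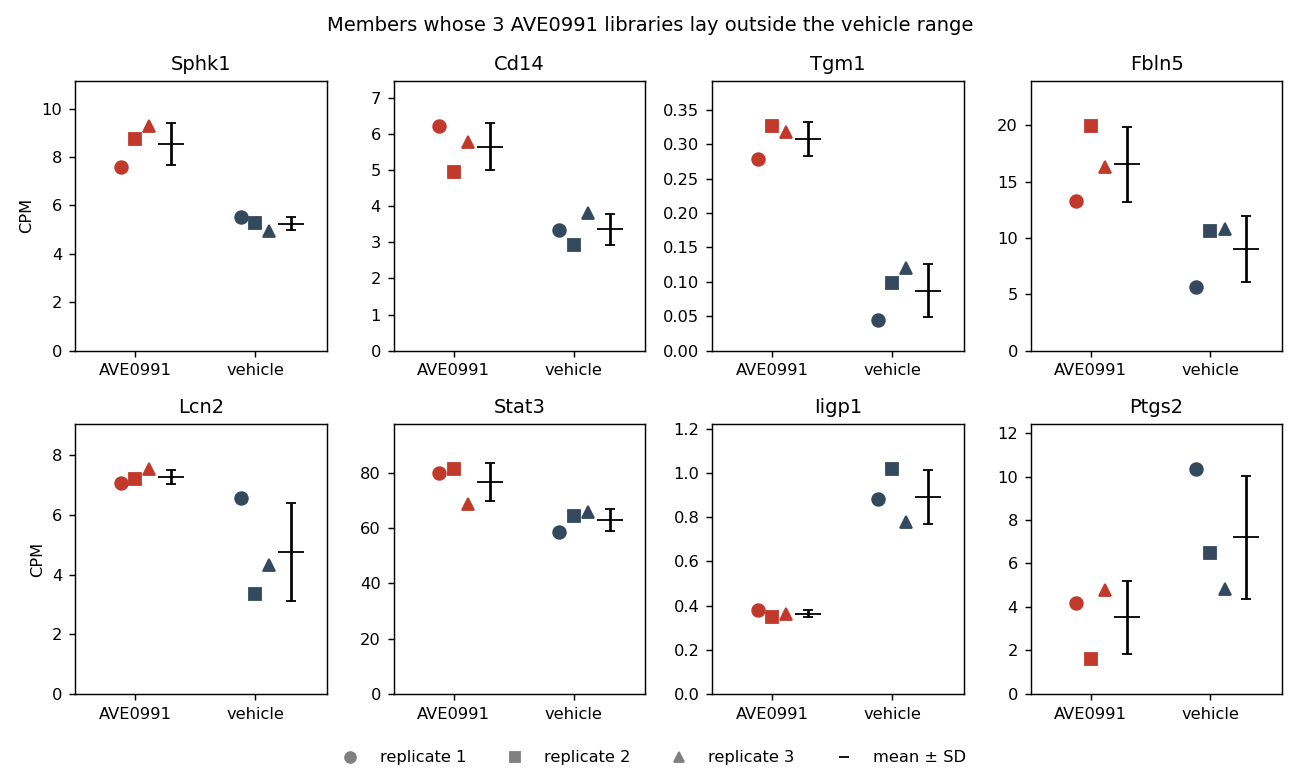
CPM of the 8 members whose 3 AVE0991 libraries all lay above or all below the 3 vehicle libraries, with each library as a symbol and the mean ± SD as a black bar. The first 6 panels are higher in AVE0991 and the last 2, Iigp1 and Ptgs2, lower; none of the 8 reached an edgeR adjusted p under 0.05.

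The promoters of the members were read for motifs of the factors known to act in reactive astrocytes. RefSeq promoter windows of GRCm38.p6, from 250 bases before to 50 after each start site, were found for 28 of the 34 genes, in 37 windows. They were searched on both strands for the STAT motif TTCNNNGAA, the interferon-stimulated response element (GAAA, any 2 bases, GAAA), the AP-1 motif TGANTCA and a kappaB motif (GGG, any 2 bases, TTTCC). The STAT motif was in 7 of the 37 windows, where 8.3% of all 32851 windows held it, the interferon element in 7 (3.44% of all windows), AP-1 in 7 (7.81%) and kappaB in 2 (1.63%). Windows of 1 gene can share a site, as the 2 overlapping Sphk1 windows do, and 2 matches overlapped in 1 window. A match describes these letters alone and is not a measured binding site.

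Promoters are printed for Sphk1, Tgm1 and Fbln5, the non-overlapping higher genes with a match, and for Socs3 and Cxcl10, textbook targets of STAT3 and of interferon; these were picked after their values were seen. Sphk1, Tgm1 and Fbln5 have 5, 2 and 2 windows. For each of them the window with the most kinds of motif was printed, the first on ties. Capitals mark the matches, and each sequence reads 5′ to 3′ on the strand of its gene. The Sphk1 window, chr11:116531587-116531886 on the plus strand and 1 of 5 for that gene, holds AP-1 and STAT matches beginning 50 and 41 bases before the start site. In Tgm1, chr14:55713443-55713742 on the minus strand, an interferon element match begins 242 bases and STAT matches 173 and 64 bases before it. In Fbln5, chr12:101818435-101818734 on the minus strand, an interferon element match begins at base 6 of the transcript. In Socs3, chr11:117969317-117969616 on the minus strand, a STAT match begins 154 bases upstream. In Cxcl10, chr5:92348840-92349139 on the minus strand, an interferon element match begins 213 bases and an AP-1 match 74 bases upstream.
Sphk1: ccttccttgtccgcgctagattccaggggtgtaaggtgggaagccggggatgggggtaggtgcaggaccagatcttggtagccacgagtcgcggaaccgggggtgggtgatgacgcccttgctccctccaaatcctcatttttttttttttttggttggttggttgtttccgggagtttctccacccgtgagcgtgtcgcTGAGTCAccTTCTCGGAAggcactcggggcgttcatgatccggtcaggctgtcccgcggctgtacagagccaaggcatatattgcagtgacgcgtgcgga
Tgm1: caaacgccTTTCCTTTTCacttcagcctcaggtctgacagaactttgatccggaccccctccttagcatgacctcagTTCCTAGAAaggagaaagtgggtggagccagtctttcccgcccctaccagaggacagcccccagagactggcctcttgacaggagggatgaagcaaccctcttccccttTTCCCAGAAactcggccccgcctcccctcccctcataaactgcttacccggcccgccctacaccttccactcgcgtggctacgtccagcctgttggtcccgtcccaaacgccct
Fbln5: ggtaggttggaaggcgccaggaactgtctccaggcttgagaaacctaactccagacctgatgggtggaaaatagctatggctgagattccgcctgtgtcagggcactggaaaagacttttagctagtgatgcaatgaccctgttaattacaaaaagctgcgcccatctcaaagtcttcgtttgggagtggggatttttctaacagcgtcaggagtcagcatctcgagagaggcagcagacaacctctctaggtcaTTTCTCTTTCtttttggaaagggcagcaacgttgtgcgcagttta
Socs3: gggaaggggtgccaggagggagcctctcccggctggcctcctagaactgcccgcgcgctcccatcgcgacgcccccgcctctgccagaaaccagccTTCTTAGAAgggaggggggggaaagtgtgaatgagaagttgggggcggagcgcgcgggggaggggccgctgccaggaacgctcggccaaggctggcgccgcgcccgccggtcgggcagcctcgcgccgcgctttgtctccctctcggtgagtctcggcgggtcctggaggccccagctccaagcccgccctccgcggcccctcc
Cxcl10: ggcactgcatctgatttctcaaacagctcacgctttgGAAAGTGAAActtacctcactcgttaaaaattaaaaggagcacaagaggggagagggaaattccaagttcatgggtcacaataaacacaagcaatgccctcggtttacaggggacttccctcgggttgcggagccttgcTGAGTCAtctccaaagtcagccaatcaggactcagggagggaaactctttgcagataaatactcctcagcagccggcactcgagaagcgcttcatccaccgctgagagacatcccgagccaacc
Members with the same motif match did not all separate the groups. Among the genes with a STAT match, Sphk1 separated the groups, while Socs3, Steap4, Psmb8 and Emp1 overlapped between them. Among the genes with an interferon element, Fbln5 separated the groups and Cxcl10, Gbp2, H2-T23, Srgn and Tm4sf1 did not. Tgm1 has both matches and is left out here, since the filter on low counts fixed its direction. By comparison, 14.3% of all genes tested lay above vehicle in every AVE0991 library and 16.3% lay below. So few genes with a match cannot show whether a motif goes with separation of the groups.

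A second set of members set AVE0991 replicates 2 and 3 apart from AVE0991 replicate 1, as the cerebellar markers did. Cd44, the surface receptor of hyaluronan, stood at 7.26 CPM in AVE0991 replicate 1 but at 14.4 and 15.1 CPM in replicates 2 and 3, against 6.94, 7.71 and 5.30 CPM in vehicle libraries. Its log2 fold change was 0.88 (SE 0.30, adjusted p = 0.153), 1.15 without AVE0991 replicate 1 (adjusted p = 0.0164) and 0.13 without AVE0991 replicates 2 and 3. Without AVE0991 replicate 1 edgeR called 6.63% of all genes higher and 4.76% lower, and among the members Cd44, Serping1, Sphk1 and B3gnt5 higher. B3gnt5, a glycosyltransferase of lacto-series glycolipids, had 0.399, 1.83 and 3.11 CPM in AVE0991 libraries and 0.661, 0.450 and 0.598 CPM in vehicle libraries. AVE0991 replicate 1 was the lowest of all 6 libraries, and the log2 fold change of 1.64 (SE 0.68, adjusted p = 0.209) became -0.50 without replicates 2 and 3.

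Serping1, the inhibitor of complement C1, had 11.3, 17.7 and 19.7 CPM in AVE0991 libraries and 7.60, 11.8 and 7.73 CPM in vehicle libraries. Its log2 fold change was 0.84 (SE 0.26, adjusted p = 0.137), with 1.05 without AVE0991 replicate 1 (adjusted p = 0.0341) and 0.33 without AVE0991 replicates 2 and 3. Hspb1, a small heat shock protein, had 6.24, 9.99 and 8.58 CPM in AVE0991 and 4.23, 7.20 and 5.38 CPM in vehicle libraries (log2 fold change 0.56, SE 0.26). Cxcl10, an interferon-induced chemokine, had 0.499, 0.827 and 0.840 CPM in AVE0991 and 0.617, 0.333 and 0.618 CPM in vehicle libraries (log2 fold change 0.46, SE 0.37). For Hspb1 and Cxcl10, as for Cd44 and Serping1, AVE0991 replicate 1 lay within the vehicle range and replicates 2 and 3 above it.

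Ggta1 and S1pr3 showed the opposite order, with AVE0991 replicate 1 within the vehicle range and replicates 2 and 3 below it. Ggta1, the enzyme of the alpha-gal epitope, had 6.74, 3.18 and 4.06 CPM in AVE0991 and 7.32, 5.52 and 5.32 CPM in vehicle libraries. Its log2 fold change was -0.38 (SE 0.30), and 0.17 without AVE0991 replicates 2 and 3. In all, 4 of the 32 tested members had AVE0991 replicate 1 within the vehicle range and the other two above it, where 8.14% of all genes did, and 2 had the other two below it, where 5.39% of all genes did. Whether cerebellar tissue accounts for these members was not tested.

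**Figure D3:**
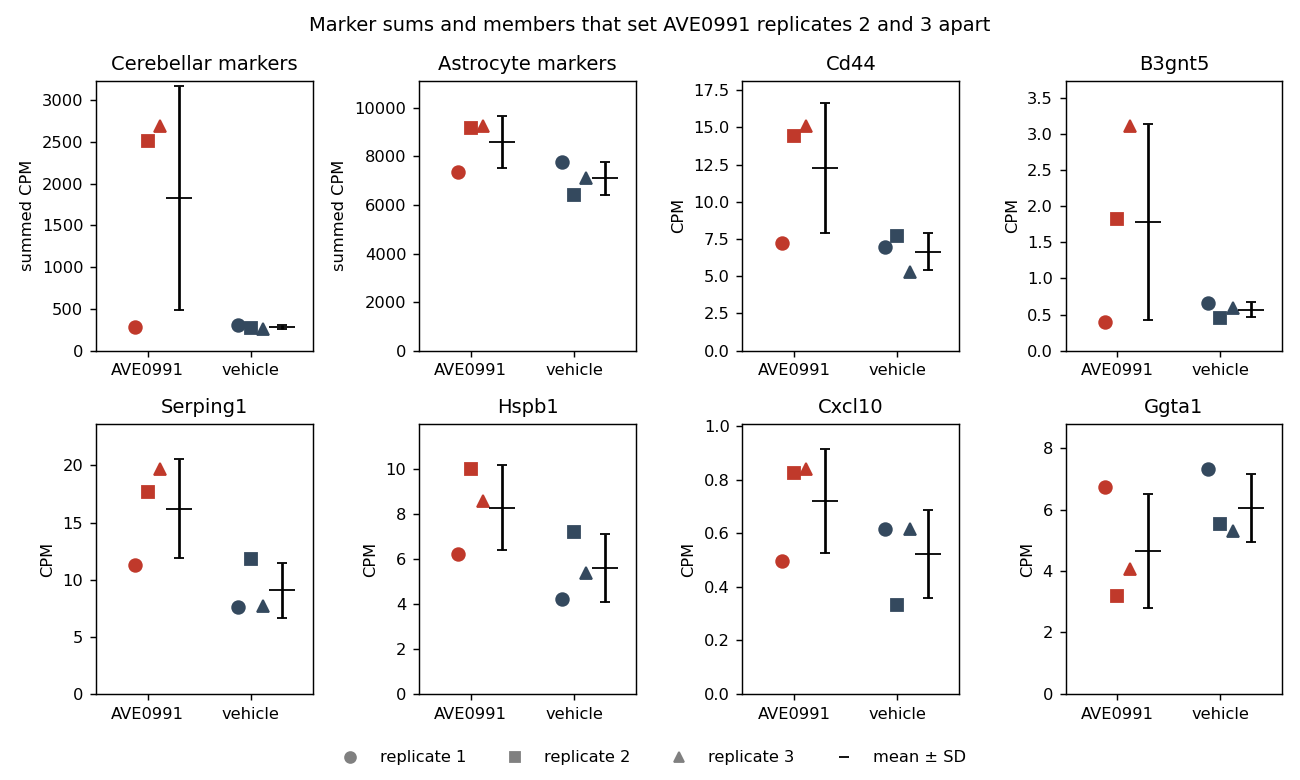
Summed CPM of 12 cerebellar and 15 astrocyte markers, and CPM of 6 members, in each library, with the mean ± SD as a black bar. Cerebellar markers summed to 2510 and 2691 CPM in AVE0991 replicates 2 and 3, the same libraries in which Cd44, B3gnt5, Serping1, Hspb1 and Cxcl10 were highest and Ggta1 lowest.

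Several of the most abundant members overlapped between groups. Serpina3n, a secreted protease inhibitor widely used as a reactive astrocyte marker, had 28.4, 24.7 and 20.3 CPM in AVE0991 and 18.6, 26.1 and 19.3 CPM in vehicle libraries (log2 fold change 0.20, SE 0.18, 95% interval -0.23 to 0.62). Amigo2, a neuronal and glial adhesion protein, had 21.1, 22.8 and 19.7 CPM in AVE0991 and 12.3, 17.5 and 21.7 CPM in vehicle libraries (0.30, SE 0.20). S100a10, the calcium-binding partner of annexin A2, had 14.5, 12.6 and 14.3 CPM in AVE0991 and 15.2, 13.9 and 11.8 CPM in vehicle libraries (0.02, SE 0.13, 95% interval -0.29 to 0.33).

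Per transcript length the order of the members was different. S100a10 was highest at 21.7 ± 1.99 FPKM in AVE0991 and 22.6 ± 2.67 FPKM in vehicle libraries (SD, n = 3 each), followed by Stat3 at 17.0 ± 1.77 FPKM in AVE0991 and 14.7 ± 1.14 FPKM in vehicle libraries and Serpina3n at 11.7 ± 2.24 FPKM in AVE0991 and 10.8 ± 2.25 FPKM in vehicle libraries. Stat3 and Serpina3n are neighbours in that order. In vehicle libraries the lowest Stat3 value and the highest Serpina3n value were both 13.38 FPKM. At the other end, Ptx3 and Slc10a6 were too sparse to test. Ptx3, the soluble pattern recognition protein pentraxin 3, had 10, 5 and 6 counts in AVE0991 and 12, 4 and 5 counts in vehicle libraries, and Slc10a6, a steroid sulfate carrier, had 10, 9 and 13 counts in AVE0991 and 15, 7 and 6 counts in vehicle libraries.

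Vehicle replicate 2 was the highest vehicle library for 15 of the 34 members, vehicle replicate 1 for 13 and vehicle replicate 3 for 6. Cp, Tm4sf1, S1pr3, Cd109 and Emp1 were among the 15. The others were Steap4, Timp1, Hspb1, Cd44, Serpina3n, H2-T23, Serping1, Iigp1, Gbp2 and Psmb8. Cp, the ferroxidase ceruloplasmin, which the choroid plexus also makes, had 6.76, 12 and 11.8 CPM in AVE0991 and 9.28, 15.1 and 9.78 CPM in vehicle libraries (log2 fold change -0.16, SE 0.28). Tm4sf1, a surface protein of endothelial cells, had 3.11, 4.31 and 4.11 CPM in AVE0991 and 3.81, 6.73 and 3.92 CPM in vehicle libraries (-0.33, SE 0.27). Emp1, an epithelial membrane protein, had 1.89, 2.53 and 1.43 CPM in AVE0991 and 1.43, 2.33 and 1.47 CPM in vehicle libraries, highest in replicate 2 of both groups (0.16, SE 0.31). Cd109, a protein of endothelial and other cells that binds transforming growth factor beta, stood at -0.02 (SE 0.28). Endothelial markers summed to 69.9, 168 and 99.0 CPM in AVE0991 and 107, 187 and 106 CPM in vehicle libraries. Pericyte and smooth muscle markers summed to 128, 180 and 153 CPM in AVE0991 and 145, 203 and 133 CPM in vehicle libraries, and choroid plexus and ependymal markers to 401, 583 and 404 CPM in AVE0991 and 151, 1418 and 798 CPM in vehicle libraries. On the log2 fold change 9, 8 and 8 of the 10 markers of these 3 lists lay below 0, as did 10321 of all 20363 genes tested. By edgeR 0 of them were called. DESeq2 called 1, the endothelial Esam, lower (log2 fold change -0.51, adjusted p = 0.0206), against 6.48% of all genes. Fewer cells of a type and less RNA per cell cannot be told apart in these bulk libraries, and the part of these cells in the values was not tested.

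The remaining 8 tested members had log2 fold changes from -0.38 to 0.20, none with an unadjusted p under 0.05. Osmr, the receptor chain for oncostatin M, stood at -0.12 (SE 0.31) in the fit of counts, while its FPKM averaged 1.46 ± 0.46 in AVE0991 and 2.04 ± 0.58 in vehicle libraries (SD, n = 3 each), a wider gap than in counts. Clcf1, a ligand of the ciliary neurotrophic factor receptor, stood at -0.38 (SE 0.34). Gbp2, an interferon-induced guanylate-binding protein, stood at 0.20 (SE 0.23), the immunoproteasome subunit Psmb8 at 0.08 (SE 0.18) and the non-classical MHC gene H2-T23 at -0.03 (SE 0.11). Srgn, the granule proteoglycan serglycin, stood at 0.08 (SE 0.19), Steap4, a metalloreductase, at 0.10 (SE 0.27), and the asparaginase gene Aspg at 0.15 (SE 0.16). H2-T23, Gbp2 and Serpina3n have close paralogues, so their values are uncertain where the counting could split reads. The deposited counts of Osmr, Ggta1, H2-T23, Srgn and Slc10a6 were off a whole number by more than 0.005 in 3 to 6 libraries, for a reason that was not tested. Neutrophil and monocyte markers, another source of Lcn2, Srgn and Cd14 transcripts, summed to 24.9 to 33.8 CPM in AVE0991 and 17.4 to 51.4 CPM in vehicle libraries.

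**Figure D4:**
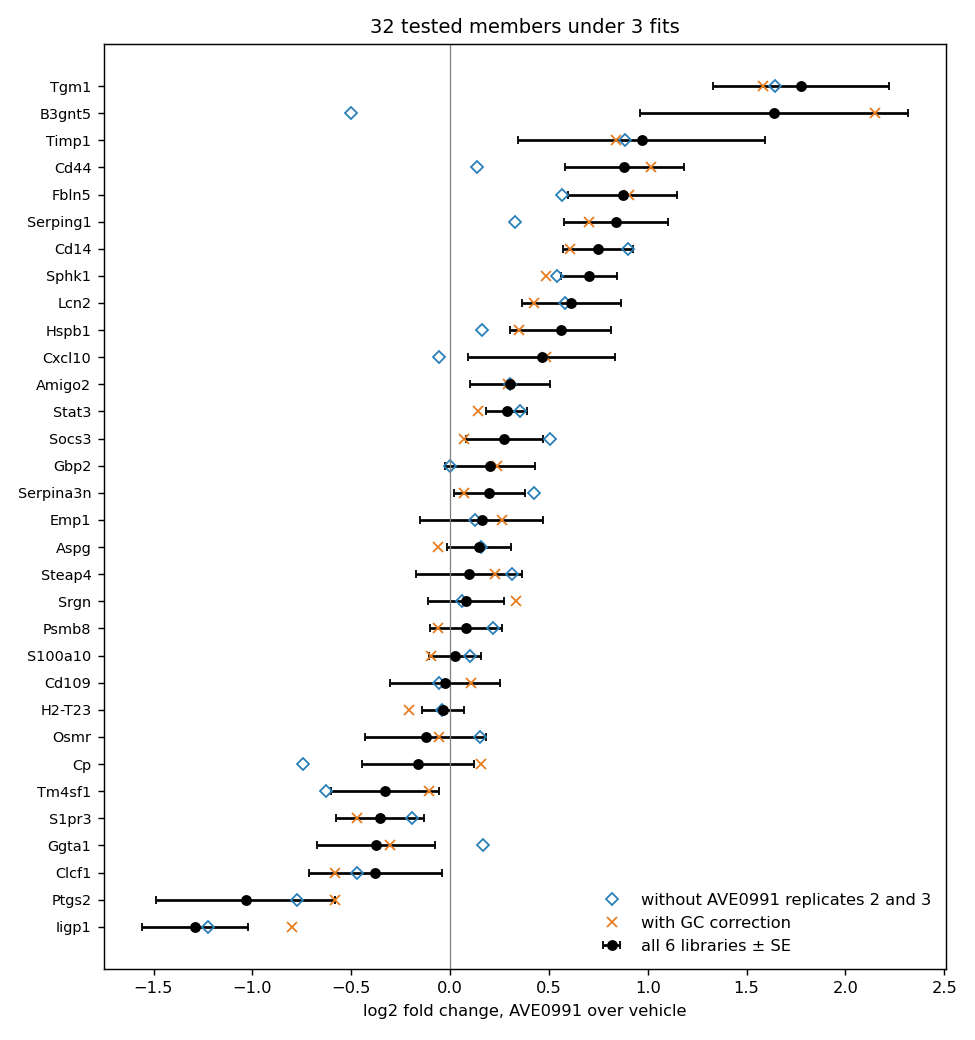
Log2 fold change of AVE0991 over vehicle for the 32 tested members from all 6 libraries (black, ± SE), without AVE0991 replicates 2 and 3 (open diamonds) and with a correction for GC content (crosses). Cd14, Sphk1 and Iigp1 stay near their values without replicates 2 and 3, while B3gnt5, Cd44, Serping1 and Hspb1 move toward or past 0.

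GC content moved the values of single members. With the GC correction the median log2 fold change of the 32 was 0.19 and 21 of 32 lay above 0. Sphk1, at 59.6% GC, stood at 0.49 after it, and Cd14, at 52.5% GC, at 0.60. B3gnt5, at 38.6% GC, moved outward to 2.15. Cp, Aspg, Psmb8, S100a10 and Cd109 took the opposite sign. With it no member was called, where 0.00491% of all genes were called in each direction.

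The interleukin-6 family route around Osmr, Clcf1, Stat3 and Socs3 was read from lists of its other genes. Of 7 other ligand genes 6 were tested and 0 were called in either direction by edgeR or DESeq2, with 0 at an unadjusted edgeR p under 0.05; Il6 itself had 1 count over the 6 libraries. Osm, the ligand of Osmr, had 0.419, 0.435 and 0.522 CPM in AVE0991 and 0.353, 0.0587 and 0.219 CPM in vehicle libraries. Its log2 fold change was 1.13 (SE 0.56, adjusted p = 0.27). Il11 (0.90, SE 0.41) and Ctf1 (0.51, SE 0.25) also did not overlap between groups. In these 3 of the 6 all AVE0991 libraries lay above vehicle, as in 14.3% of all genes tested. Reads were few, with 3 to 23 counts per library for Osm and 6 to 17 for Il11. Both met the filter on low counts in every AVE0991 library but not in every vehicle library. The filter therefore favoured their direction, and their separation is not independent of it. Of 5 receptor genes 0 were called by edgeR, with log2 fold changes from 0.03 to 0.77. Cntfr, 1 of the 5 (20%), was higher at an unadjusted p under 0.05, against 10.9% of all genes tested. DESeq2 also called Cntfr alone higher, against 4.71% of all genes. Cntfr, the receptor through which Clcf1 acts, stood at 99.0, 179 and 146 CPM in AVE0991 libraries. Vehicle libraries had 76.2, 83.0 and 90.0 CPM. The log2 fold change of Cntfr was 0.77 (SE 0.21, adjusted p = 0.119 by edgeR and 0.0144 by DESeq2). It was 0.26 without AVE0991 replicates 2 and 3. Il11ra1 stood at 0.55 (SE 0.24) and the shared chain gp130, encoded by Il6st, at 0.36 (SE 0.19), and these became -0.0482 and -0.00504 without the same libraries.

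Of 12 further kinase, STAT and inhibitor genes 0 were called by edgeR, 4 were higher and 0 lower at an unadjusted p under 0.05 (33.3% and 0%, against 10.9% and 12.7% of all genes tested), and DESeq2 called 2 higher, Stat5a and Stat5b (16.7%, against 4.71% of all genes). Stat5a had 6.04, 9.95 and 7.29 CPM in AVE0991 and 2.80, 3.87 and 5.36 CPM in vehicle libraries (log2 fold change 0.95, SE 0.29, adjusted p = 0.132). Stat5b had 65.4, 84.5 and 74.2 CPM in AVE0991 and 46.5, 53.0 and 60.8 CPM in vehicle libraries (0.48, SE 0.14, adjusted p = 0.125). Both separated the groups, as did Pias3, an inhibitor of STAT3, at 0.33 (SE 0.11), and Ptpn11, the phosphatase SHP2, at 0.24 (SE 0.12). Socs5, an inhibitor of the SOCS family, lay below in all 3 AVE0991 libraries, with 115, 96.0 and 103 CPM in AVE0991 and 124, 116 and 129 CPM in vehicle libraries (-0.23, SE 0.10). The log2 fold changes without AVE0991 replicates 2 and 3 were 0.60 for Stat5a, 0.30 for Stat5b, 0.21 for Pias3, 0.15 for Ptpn11 and -0.0917 for Socs5. Of the 12 genes, 4 lay above vehicle in all 3 AVE0991 libraries and 1 below, against 14.3% and 16.3% of all genes tested. Jak1, the kinase bound to gp130, stood at -0.04 (SE 0.09). The median log2 fold change of the 12 genes was 0.25, and 0.08 with the GC correction. After that correction Stat5a stood at 0.74, Stat5b at 0.33 and Pias3 at 0.15.

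**Figure D5:**
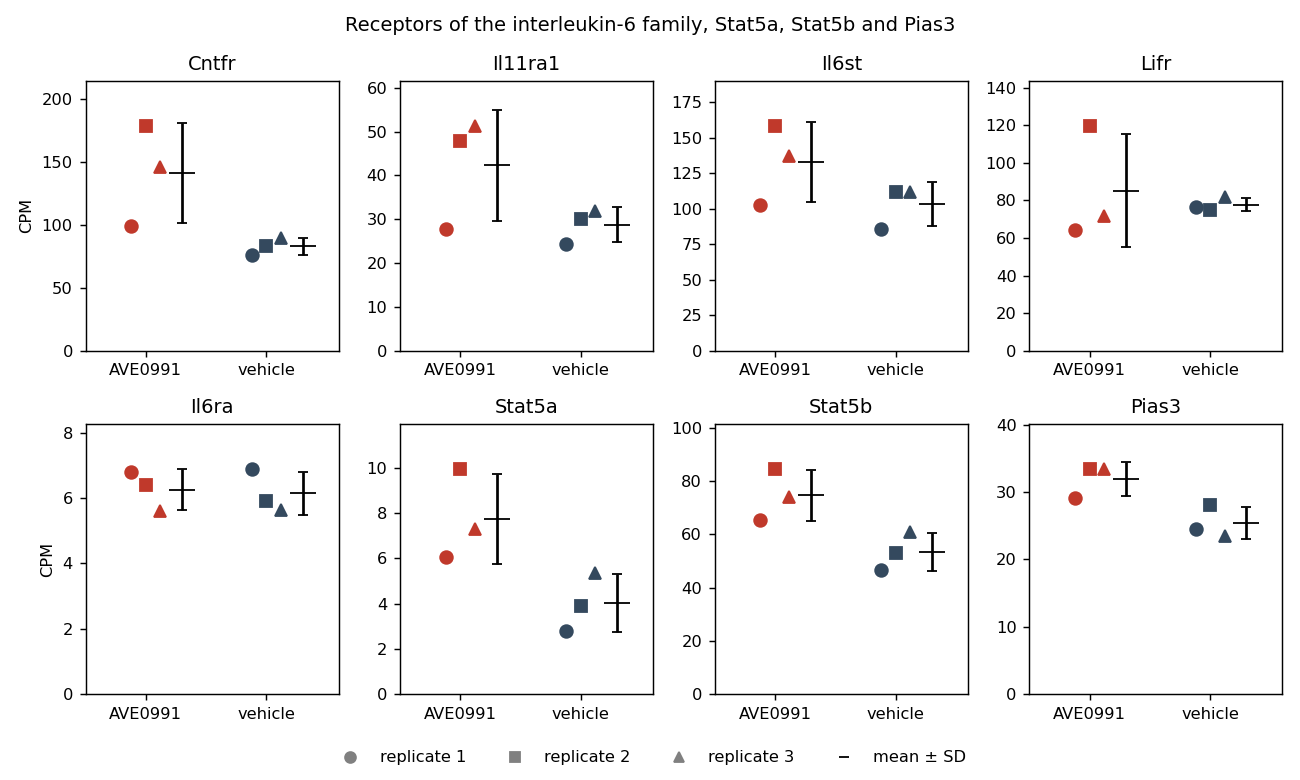
CPM of receptor genes of the interleukin-6 family (Cntfr, Il11ra1, Il6st, Lifr, Il6ra) and of Stat5a, Stat5b and Pias3 in each library, with the mean ± SD as a black bar. Cntfr, Stat5a, Stat5b and Pias3 separate the 3 AVE0991 libraries from the 3 vehicle libraries, and Il11ra1 and Il6st are highest in AVE0991 replicates 2 and 3.

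The microglial signals reported to induce the A1-type state, and their receptors, were listed as 8 genes, of which 7 were found and tested (Tnf is not analysed here). By edgeR and by DESeq2 0 were called, and 0 had an unadjusted edgeR p under 0.05. The tumour necrosis factor receptor genes Tnfrsf1a, at 0.41 (SE 0.17), and Tnfrsf1b, at 0.30 (SE 0.14), were above the vehicle libraries in all 3 AVE0991 libraries, and without AVE0991 replicates 2 and 3 they stood at 0.20 and 0.47. These were 2 of the 7, where 14.3% of all genes tested lay above in this way. C1qb, a chain of complement C1q, stood at 0.19 (SE 0.16). Among 16 partner genes of sphingosine-1-phosphate and prostaglandin signalling, 0 were called by edgeR, 3 were higher and 1 lower at an unadjusted p under 0.05 (18.8% and 6.25%, against 10.9% and 12.7% of all genes tested). DESeq2 called 0 higher and 1, Ptges3, lower (6.25%, against 6.48% of all genes lower). Ptges3, a prostaglandin E synthase and co-chaperone, had 75.7, 67.5 and 75.2 CPM in AVE0991 and 92.5, 96.1 and 100.3 CPM in vehicle libraries (log2 fold change -0.40 and SE 0.09 with an adjusted p of 0.0923, and -0.18 once corrected for GC). S1pr1, the sphingosine-1-phosphate receptor gene with the highest FPKM on the list, stood at a log2 fold change of 0.34 (SE 0.12) and Sgpl1, the lyase that degrades the lipid, at 0.34 (SE 0.12), both above vehicle in all 3 AVE0991 libraries. S1pr1 stood at 0.18 and Sgpl1 at 0.13 without AVE0991 replicates 2 and 3. Of the 16 genes, 5 lay above vehicle in all 3 AVE0991 libraries and 2 below, against 14.3% and 16.3% of all genes tested. With the GC correction the median log2 fold change went from 0.13 to 0.06 for these 16 genes. It went from 0.19 to -0.00639 for the 7 A1 signal and receptor genes. For the interleukin-6 family it went from 0.22 to 0.08 in the ligands and from 0.36 to 0.37 in the receptors.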

How the data were processed

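RNA of 6 libraries was Trizol-extracted, freed of ribosomal RNA and copied with dUTP in the second strand, per the labels' protocols. Reads were aligned with HISAT to mm9, per the submitters' processing notes; the sources used here do not give the counter, its strand setting or the gene models. Whether reads of antisense partners were kept apart is therefore unknown. The authors deposited estimated counts and FPKM values per library, and a comparison with log2 fold changes, p-values and q-values, from DESeq2 per the file headers.

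Estimated counts of gene rows were rounded and analysed with edgeR 4.0.16 in R 4.3.3 (filterByExpr, TMM, robust quasi-likelihood F test, Benjamini-Hochberg over 20363 genes, threshold 0.05). Each standard error (SE) is the absolute log2 fold change over the root of its F statistic. Alternatives used DESeq2 1.42.0, limma 3.58.1, a correction for GC content of the longest GENCODE M21 transcript, and fits without single libraries. No library pair agreed within sampling noise (smallest chi-square per gene 16.4), so none was treated as a repeat deposit; this does not show that libraries came from separate animals. The script was tested on simulated data. Circular RNA rows were left out except in 1 alternative. The members and lists were chosen with earlier results of these data known, and the rule gave per-library values for members with an unadjusted p under 0.05, without overlap, or among the most abundant, and other genes were named after their values were seen. The values of 1 pathway gene are not reported here. GRCm38 promoters served for sequence only; no mm9 coordinates are given. The SEs and intervals include the spread between libraries.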

Additional observations from a re-analysis of the deposited data

How the results depend on the processing

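No member was called in any edgeR fit of all 6 libraries. The counts of members called higher and lower were 5 and 1 by DESeq2 and 1 and 0 by limma-voom with quality weights (Sphk1), and 0 to 4 higher and 0 lower when single libraries were left out, the 4 being Cd44, Serping1, Sphk1 and B3gnt5 without AVE0991 replicate 1. Over all genes edgeR called 7 higher and 169 lower. DESeq2 called 958 and 1318, limma-voom 525 and 770, limma on log2(FPKM + 0.1) 6 and 233, edgeR with no filter 58 and 379, and a minimum mean of 1 CPM gave 18 and 328. The GC correction gave 1 and 1, and gene and circular RNA rows in one fit 1 and 1. Without AVE0991 replicates 2 and 3, an alternative chosen after seeing the data in which the lone AVE0991 library is assumed to vary like the others, the counts were 0 and 0. Without single libraries 0 to 1386 genes were higher and 0 to 995 lower, the upper ends without AVE0991 replicate 1 and 0 and 0 without any other single library. The replicate block gave 0 and 0 genes, with or without the GC correction. Deviations from the group means had correlations of 0.07, 0.17 and -0.47 between same-numbered libraries and -0.44 to 0.47 between unlike-numbered ones. With 3 libraries per group and AVE0991 replicates 2 and 3 set apart, these values cannot settle whether the numbers pair libraries. The median log2 fold change of the members, 0.18, was 0.12 by limma on FPKM and 0.12 to 0.23 without single libraries.

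Signs turned for some genes, most of them near 0; B3gnt5 at 1.64, Il11ra1 at 0.55, Cxcl10 at 0.46, Ggta1 at -0.38 and Il6st at 0.36 turned without AVE0991 replicates 2 and 3. With the GC correction Cp stood at 0.16, Aspg at -0.0597, Psmb8 at -0.0611, S100a10 at -0.0961, Cd109 at 0.10 and C1qb at -0.00639; with the replicate block and GC correction they stood at 0.16, -0.0594, -0.0803, -0.0905, 0.11 and -0.0299. By limma-voom Osmr was 0.0956 and Cd109 0.10, by limma on FPKM Psmb8 was -0.0157 and S100a10 -0.0527, and under the minimum mean of 1 CPM S100a10 was -0.00120. Without AVE0991 replicates 2 and 3 Cxcl10 was -0.0553, Osmr 0.15, Ggta1 0.17, Gbp2 -0.00121, B3gnt5 -0.50, Il11ra1 -0.0482 and Il6st -0.00504. Without single libraries Steap4 ran from -0.0216 to 0.17, Cp from -0.29 to 0.0960, S100a10 from -0.0686 to 0.13, Osmr from -0.38 to 0.14, Cd109 from -0.22 to 0.21, Emp1 from -0.0665 to 0.43, Psmb8 from -0.00477 to 0.23, H2-T23 from -0.0635 to 0.00187 and Srgn from -0.0215 to 0.17. The cause was not tested. Depth limits Tgm1, Timp1, Ptx3 and Slc10a6, with at most 31 counts in any library. Among the ligand genes it limits Osm and Il11, with at most 23 and 17 counts.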
